A study of Mus musculus with 14 samples.

Results

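Isolated single 3′ ends are poly(A) sites, the positions where mRNAs are cleaved and polyadenylated, that have no other listed site within 5000 nt on the same chromosome and strand. Of 33590 listed sites, 7678 met that distance, 3309 of these passed the authors' read filter, and 2671 of those held at least 60 reads over the 2 control libraries and are described here. All sites of the deposited table counted as neighbours, whether or not they passed the filter. The control counts set membership, so they are given as a description and not as a result.

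The study asked how the choice among 3′ ends goes with mRNA stability and translation. The cells were 3T3, an established mouse fibroblast line, and each library is a bulk sample, in which fewer cells and less RNA per cell cannot be told apart. Reads were made by 2P-Seq, which sequences poly(A)-selected RNA from the tail inwards. Untreated cells gave the 2 controls, cells kept in actinomycin D at 10 µg/ml for 1, 2, 4 or 8 h gave 1 library each, and a sucrose gradient gave 6 fractions. Libraries made by 3P-Seq were not analysed here. The labels do not give separate cultures for the controls, and there is a single library for each time and each fraction. The p-values therefore reflect how far these libraries scatter about a line, which may be technical. The positions are in the mm9 build and were not paired with gene names here, so ends are named by position and the fibroblast markers were not checked.

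A gene with several poly(A) sites makes mRNAs that share a coding region and differ in their 3′ untranslated region, and a change at one site can then reflect a switch to another. An end with no listed neighbour within 5000 nt carries the listed reads of that stretch alone. Another listed end of the same gene can lie further away, and sites were not paired with genes. The nearest end on the strand lay at 5 to 10 kb for 394 isolated ends and at 10 to 20 kb for 498. Actinomycin D blocks transcription, so that the mRNAs already made decay without being replaced. In a sucrose gradient mRNAs sediment further the more ribosomes they carry, and the number an mRNA can carry depends both on how often translation starts and on how long its coding region is.

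The libraries held between 1663346 counts (the lightest fraction) and 11575417 (the heaviest), and the controls 5843403 and 6433503. Isolated ends made up 26.6% and 25.6% of control counts, 28.2% after 8 h of actinomycin D, 26.8% in the lightest fraction and 23.0% in the heaviest. Without the 10 most abundant of them, the share was 22.6% and 22% in the controls and 21.6% at 8 h. In the gradient it was then 17.2% in the lightest fraction and 19.9% in the heaviest, the reverse order. Between the controls, the log2 ratio of counts divided by the authors' library factors had an SD of 0.46 over the 2671 ends and of 0.37 over the 1895 with at least 200 control counts, and 113 ends differed more than 2-fold.

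The nearest end on the strand lay a median of 34225 nt away (middle 50%, 14835 to 88009 nt). An end on the opposite strand lay within 5000 nt of 661 isolated ends (24.7%) and within 500 nt of 294 (11%). For the 10747 ends that passed the same read limits but had a same-strand neighbour, these shares were 22.4% and 7.20%. The plus strand held 1320 isolated ends and the minus strand 1351. At the distance limit, the last 3 ends left out had neighbours at 4969, 4974 and 4976 nt and half-lives of 5.12, 5.68 and 2.57 h in the authors' deposited table, and the first 3 taken in had neighbours at 5006, 5021 and 5055 nt and half-lives of 1.46, 2.59 and 4.29 h. At the count limit, 15 isolated ends with 59 control counts had a median half-life of 3.55 h in the authors' deposited table and 5 with 60 counts had one of 2.96 h.

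After actinomycin D, isolated ends spread over the whole range from loss within 1 h to no loss in 8 h. Of the 2671, 857 fell over the hours relative to the rest of the library and 687 rose (edgeR quasi-likelihood test of a slope on hours, adjusted p under 0.05 over all 16913 sites tested). That is 32.1% falling and 25.7% rising, where 28.2% and 20.8% of all sites tested were called in those directions. The controls that enter the choice of ends are part of that fit. From the 1, 2, 4 and 8 h libraries alone, 527 isolated ends fell and 461 rose (19.7% and 17.3%), beside 17.1% and 13.3% of all sites. The median slope was -0.028 log2 per h for isolated ends and -0.027 for all sites tested. Of the ends with neighbours, 32.9% fell and 21.4% rose. The median control count was 410 for isolated ends and 269 for ends with neighbours, so the calls do not start from the same depth. These slopes are relative to the typical site. With the factors in the file header the median of all sites moved to -0.179 log2 per h, and 1563 isolated ends fell and 73 rose, against 52.7% and 2.71% of all sites. Rising ends were then 4.46% of those called, in place of 44.5%.

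Scaled by those factors, the median isolated end kept 94.1%, 77.8%, 60.2% and 37.8% of its control level after 1, 2, 4 and 8 h. At 8 h, 1548 ends (58.0%) were under 0.5 of their control mean, 451 (16.9%) were above it, and 112 had no count. Already at 1 h, 334 ends (12.5%) were under 0.5. Ends called falling had a median of 66.8%, 40.5%, 19.7% and 8.03% of the control level at these times. Ends called rising stood at 114%, 119%, 121% and 112%, so their median stayed above the control level on this scale at every time. By the authors' deposited table, half-lives of 2657 isolated ends had a median of 3.07 h (middle 50%, 1.69 to 5.52 h), and 338 were under 1 h, 484 from 1 to 2 h, 816 from 2 to 4 h and 413 over 6.93 h, the value of a site whose scaled count does not fall.

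**Figure D1:**
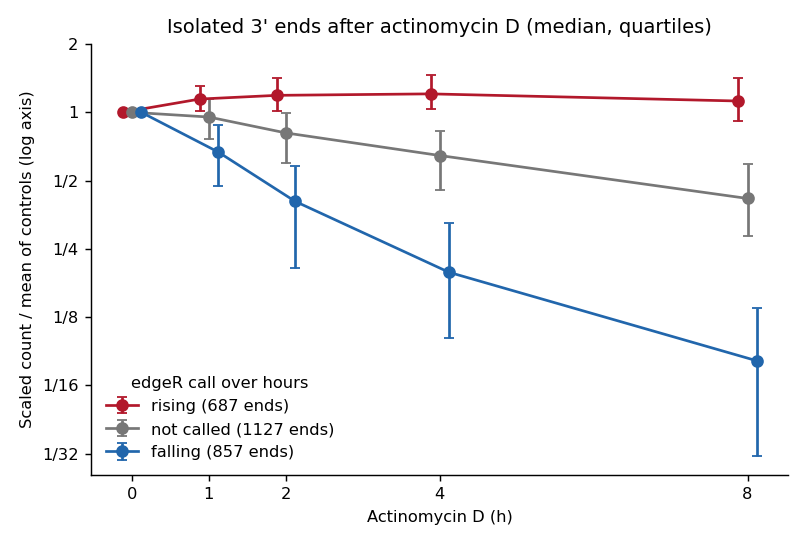
Scaled count of isolated 3′ ends divided by the mean of the 2 controls (log axis) against hours of actinomycin D, as medians with quartile bars for the 3 call classes. The 857 falling ends reach a median of 8.03% at 8 h, while the median of the 687 rising ends stays between 112% and 121%.

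Among called ends with at least 200 control counts, the 4 steepest falls over hours were mostly over by the first hour. At 56590397 on chromosome 12 (minus strand), the end held 31.5 and 27.0 CPM (CPM is the count scaled to a common library total) in the controls, 1.15 at 1 h and 1.02 at 2 h. It had 0 counts at 4 and 8 h, which allows up to 0.594 and 0.742 CPM (3 counts of the library). Its slope was -2.66 ± 0.29 log2 per h (SE, edgeR adjusted p = 7.88e-05). The chromosome 4 end at 132047947 (minus strand) held 35.8 and 31.1 CPM in the controls, then 4.25, 0.853, 0.594 and 0 CPM (slope -1.83 ± 0.20, edgeR adjusted p = 6.34e-05). Both treated series lay below both controls from 1 h on. Position 53590824 on chromosome 11 (plus strand) started at 54.4 and 53.5 CPM in the controls and then held 4.91, 1.19, 0.792 and 0.247 CPM (slope -1.64 ± 0.29, edgeR adjusted p = 0.00318). On chromosome 7 (plus strand), the end at 25867498 started at 45.7 and 28.1 CPM in the controls and then held 2.78, 2.22, 0.792 and 0 CPM (slope -1.55 ± 0.22, edgeR adjusted p = 3.88e-04). By the authors' deposited table, these 4 ends had half-lives of 0.215, 0.330, 0.285 and 0.274 h in the order given. A fitted slope that runs into 0 counts sets no limit on the rate. DESeq2 gave -1.22, -1.31, -1.01 and -1.25 log2 per h, with all 4 still called. None of the 4 was called over the gradient, and their ribosomes per mRNA in the authors' deposited table ran from 5.41 to 7.40.

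The 4 fastest rises under the same count limit differed in shape from the falls, since they began after the first hour. At 36538656 on chromosome 15 (minus strand), the end held 640 and 276 CPM in the controls, then 197, 807, 2435 and 4646 CPM through the treated hours (slope 0.59 ± 0.12, edgeR adjusted p = 0.0118). The controls differed more than 2-fold and the 1 h library lay below both. The chromosome 9 end at 45738085 (minus strand) held 62.1 and 46.0 CPM in the controls, then 56.3, 128, 215 and 336 CPM (slope 0.46 ± 0.05, edgeR adjusted p = 1.18e-04). Position 73018189 on chromosome 5 (minus strand) started at 24.0 and 12.3 CPM in the controls and then held 8.35, 48.5, 59.8 and 83.8 CPM (slope 0.42 ± 0.11, edgeR adjusted p = 0.0233). Also on chromosome 5 (minus strand), 9685342 held 12.2 and 22.7 CPM in the controls and later 17.8, 72.0, 49.7 and 90.0 CPM (slope 0.39 ± 0.10, edgeR adjusted p = 0.0212). From 2 h on, all 4 lay above both of their controls. Without the 8 h library the edgeR adjusted p was 0.0850, 0.0585 and 0.0667 for the ends at 36538656, 73018189 and 9685342, and without control 2 it was 0.0710 and 0.0821 for the last 2. With the header's factors the end at 9685342 had a slope of 0.24 and was not called (0.0582 by edgeR). Ranges over alternatives for named ends cover RLE scaling, the header's factors, DESeq2 and each library left out. For the ends at 36538656, 73018189 and 9685342 the adjusted p by edgeR or DESeq2 ranged from 2.71e-05 to 0.0850, 0.00227 to 0.0710 and 5.72e-07 to 0.0821.

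These 4 ends belong to 14 isolated ends without a half-life in the authors' deposited table, where the header gives low coverage as the reason. For all 14 the exponential rate recomputed from the scaled counts was below -0.1 per h, which leaves no finite half-life under the formula that fits the other ends. Their scaled counts at 8 h stood 2.51 to 14.6 times above the control mean, and all 14 were called rising. At 1 h, 7 of the 14 were below their lower control, and 5 had controls more than 2-fold apart. Summaries of the deposited half-lives leave these ends out.

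**Figure D2:**
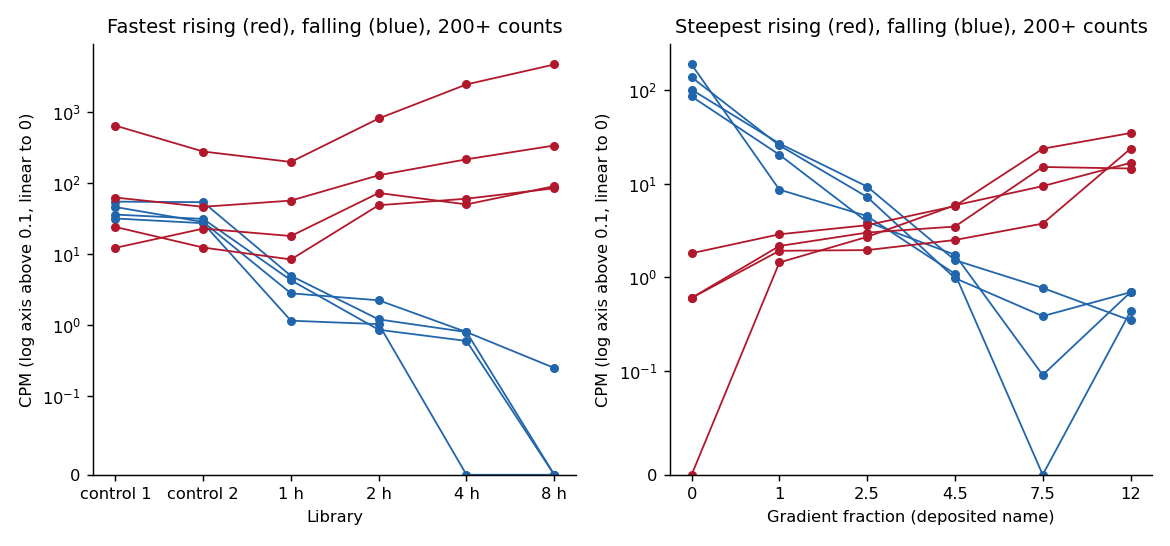
CPM (log axis above 0.1) of the isolated ends with the 4 steepest called rises and falls over hours (left, by library, at least 200 control counts) and over gradient fractions (right, by fraction, at least 200 counts over the fractions). On the left, all rising ends are above their controls from 2 h on. On the right, all falling ends are highest in the lightest fraction.

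Abundant isolated ends were longer-lived. By the authors' deposited table, the median half-life was 2.65 h at 60 to under 120 control counts, 2.36 h at 120 to under 250, 3.05 h at 500 to under 1000 and 5.98 h at 2000 or more. Of the 352 ends at 2000 or more, 230 rose over hours and 46 fell, and of the 513 at 120 to under 250, 76 rose and 195 fell. That is 65.3% rising and 13.1% falling at 2000 or more, where ends with neighbours had 55.7% and 15.8%, and 14.8% and 38.0% at 120 to under 250, where they had 15.3% and 35.9%. Ends with neighbours had deposited medians of 2.52 h at 120 to under 250 and 5.17 h at 2000 or more. The Spearman rho of half-life and control counts over 2657 isolated ends was 0.26. This is a description across ends that share the same 6 libraries, and the control counts enter both measures. The most abundant isolated end, on chromosome 17 (minus strand, 71343637), held 7337 and 5165 CPM in the controls and 5749, 6110, 8352 and 9155 CPM at 1, 2, 4 and 8 h (slope 0.19 ± 0.04, edgeR adjusted p = 0.00102). On chromosome 15 (plus strand), the end at 78760623 climbed through every treated library, from 5557 and 6238 CPM to 8768, 9559, 12219 and 14750 CPM (slope 0.27 ± 0.04, edgeR adjusted p = 1.62e-04). With the header's factors the slope of the first was 0.039 and it was not called (edgeR adjusted p = 0.275, range over alternatives 3.44e-06 to 0.275), while the second remained called.

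Over the gradient, isolated ends were spread over all polysome fractions. Fractions are named here by the number of ribosomes in their deposited names, 0, 1, 2.5, 4.5, 7.5 and 12, and an end's share is its scaled count in a fraction over its sum in all 6. The median share was 4.01% in the 0 fraction, 7.17% in 1, 18.8% in 2.5, 17.4% in 4.5, 16.3% in 7.5 and 25.7% in 12. The heaviest fraction held the largest share for 1245 ends, the 2.5 fraction for 617, the 7.5 and 4.5 fractions for 382 and 363, and the 0 and 1 fractions for 32 each. By library totals instead, the 0 fraction was the highest for 196 ends and the 1 fraction for 265, so the number of ends that peak in the lightest fractions depends on the scaling. Of the 2671, 9 ends had more than 50% of their scaled counts in the 0 fraction and 376 had more than 50% in the 12 fraction. Ribosomes per mRNA, the mean of the fraction names weighted by scaled counts, had a median of 6.28 (middle 50%, 5.14 to 7.42) in the authors' deposited table, and 6.50 for ends with neighbours.

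Of the 2652 isolated ends with at least 60 counts over the 6 fractions, 120 fell towards the heavy fractions and 9 rose (edgeR quasi-likelihood test of a slope on fraction rank, adjusted p under 0.05 over all 18484 sites). That is 4.52% falling and 0.339% rising, beside 4.28% and 0.438% of all sites tested. The 19 other members had too few counts to be tested. The median slope was 0.03 log2 per fraction for isolated ends and 0.043 for all sites. With the header's factors the median of all sites moved to 0.503 log2 per fraction, and 1065 isolated ends rose and 34 fell, against 39.4% and 0.876% of all sites. Rising ends then made up 96.9% of the calls, in place of 6.98%. The 120 falling ends had median shares of 11.1%, 25.6%, 33.4%, 11.1%, 4.92% and 5.35% from the 0 to the 12 fraction, and the 9 rising ends had 29.0% in 7.5 and 52.5% in 12. DESeq2 called 216 falling and 32 rising (8.14% and 1.21%), beside 7.08% and 1.05% of all sites, and with no count minimum 116 fell and 31 rose (4.34% and 1.16%), beside 3.95% and 0.908%. The counts also rested on single libraries, and the shares over all sites moved with them. Without the 0 fraction 227 isolated ends fell and 86 rose (8.56% and 3.24%), beside 7.69% and 3.95% of all sites. Without the 1 fraction the numbers were 55 and 3 (2.07% and 0.113%), beside 1.80% and 0.119%. Without the 2.5 fraction they were 103 and 5 (3.88% and 0.189%), beside 3.64% and 0.119%. Without the 7.5 fraction they were 38 and 3 (1.43% and 0.113%), beside 1.17% and 0.0433%. Without the 12 fraction they were 72 and 19 (2.71% and 0.716%), beside 2.21% and 0.784%.

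**Figure D3:**
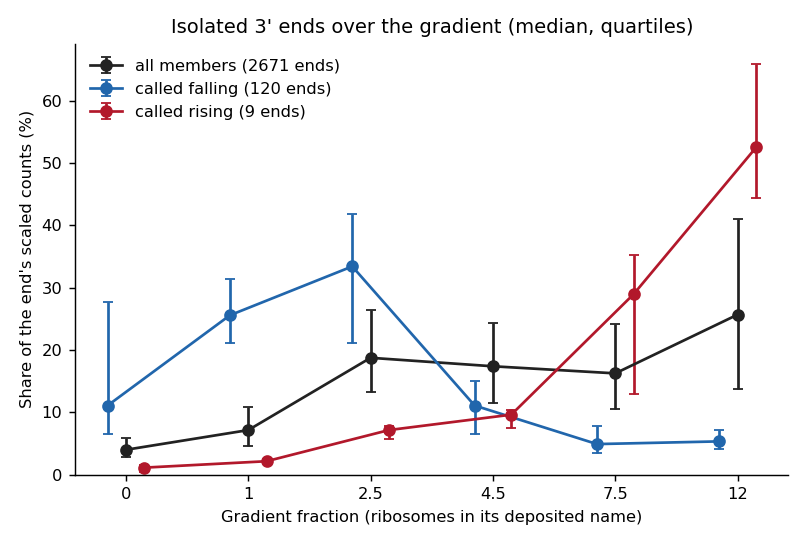
Share of each isolated end's scaled counts (%) in the 6 gradient fractions, as medians with quartile bars for all 2671 ends, for the 120 called falling and for the 9 called rising. Falling ends peak at a median of 33.4% in the 2.5 fraction, and rising ends reach 52.5% in the 12 fraction.

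The named ends that fell most steeply over the fractions, among those with at least 200 counts there, held more than 50% of their scaled counts in the 0 fraction. At 72641983 on chromosome 5 (plus strand), the end held 188 CPM in the 0 fraction, then 8.63, 4.5, 1.09, 0 and 0.432 CPM (slope -2.10 ± 0.23 log2 per fraction, edgeR adjusted p = 2.08e-08), so that 83.6% of its scaled counts were in the 0 fraction. The chromosome 3 end at 79454805 (minus strand) held 101, 26.8, 9.30, 1.52, 0.768 and 0.346 CPM (slope -1.83 ± 0.20, edgeR adjusted p = 2.08e-08). Position 90684967 on chromosome 8 (plus strand) held 137, 25.6, 7.20, 0.978, 0.384 and 0.691 CPM (slope -1.81 ± 0.20, edgeR adjusted p = 3.56e-08). The end on chromosome 5 at 9685342, one of the 4 rises over hours described above, held 85.4, 20.4, 3.90, 1.74, 0.096 and 0.691 CPM (slope -1.69 ± 0.20, edgeR adjusted p = 1.28e-07). Each of the 4 fell at every step as far as the 4.5 fraction. They did not share a rate of decay. The end at 72641983 stood at 26.4 and 26.6 CPM in untreated cells, 2.45 CPM after 1 h and 1.73 after 8 h, with a half-life of 0.327 h in the authors' deposited table, although its slope over hours was not called (-0.48 ± 0.18, edgeR adjusted p = 0.0554). The end at 79454805 rose over hours from 9.58 and 11.8 CPM to 30.7 CPM at 8 h (slope 0.30 ± 0.04, edgeR adjusted p = 2.56e-04). The end at 90684967 rose from 20 and 17.1 to 36.3 CPM (slope 0.23 ± 0.05, edgeR adjusted p = 0.00143), but with the header's factors its slope was 0.076 and it was not called (edgeR adjusted p = 0.184, range over alternatives 1.80e-05 to 0.184).

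The named ends that rose most steeply under that limit had few reads in the light fractions. On chromosome 8 (minus strand), the end at 59010320 had 0 counts in the 0 fraction, which allows up to 1.80 CPM, then 1.44, 2.70, 5.87, 9.40 and 16.7 CPM (slope 0.86 ± 0.21, edgeR adjusted p = 0.00846). At 56357858 on chromosome 14 (minus strand), the end held 1.80, 2.88, 3.60, 5.76, 23.6 and 34.7 CPM (slope 0.80 ± 0.18, edgeR adjusted p = 0.00391). The chromosome 17 end at 34353263 (plus strand) held 0.601, 1.92, 1.95, 2.5, 3.74 and 23.6 CPM (slope 0.79 ± 0.19, edgeR adjusted p = 0.00759), and it had the most ribosomes per mRNA of all isolated ends in the authors' deposited table, 10.2. Position 106117717 on chromosome 9 (plus strand) held 0.601, 2.16, 3.00, 3.48, 15.1 and 14.5 CPM (slope 0.72 ± 0.20, edgeR adjusted p = 0.0227). The rise of the end at 34353263 rests on the 12 fraction, without which its slope was 0.31 (edgeR adjusted p = 0.448, range over alternatives 0.00151 to 0.448). The end at 106117717 was not called without the 1 fraction (edgeR adjusted p = 0.0521) or the 7.5 fraction (0.144), with a range over alternatives from 0.00368 to 0.144.

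The relation of decay to the gradient, over ends with no other listed end within 5000 nt on the strand, was not a straight line. Half-lives were longest for isolated ends with the fewest ribosomes, shortest in the middle and longer again at the top. In the authors' deposited table, the median half-life was 8.22 h for 70 ends with under 3 ribosomes per mRNA, 5.28 h for 179 with 3 to 4, 3.65 h for 352 with 4 to 5 and 2.78 h for 556 with 5 to 6. From there it was 2.44 h for 602 ends with 6 to 7 ribosomes, 2.58 h for 496 with 7 to 8, 3.46 h for 312 with 8 to 9 and 4.35 h for 90 with 9 or more, again in the authors' deposited table. The hours and the fractions share no library. The calls over hours followed the same course: 67.1% of all 73 ends with under 3 ribosomes rose and 4.11% fell, 16.1% rose and 40.5% fell at 6 to 7, and 34.4% rose and 13.3% fell at 9 or more. The quartiles of neighbouring groups overlapped throughout, and at 6 to 7 ribosomes the middle 50% of deposited half-lives in the authors' deposited table ran from 1.35 to 3.96 h. Of ends with neighbours, 69.4% rose over hours and 0.913% fell under 3 ribosomes. Their shares were 15.8% and 39.4% at 6 to 7, and 36.5% and 9.52% at 9 or more, close to those of isolated ends. Ends are not replicates, so no test was made of these medians or shares.

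**Figure D4:**
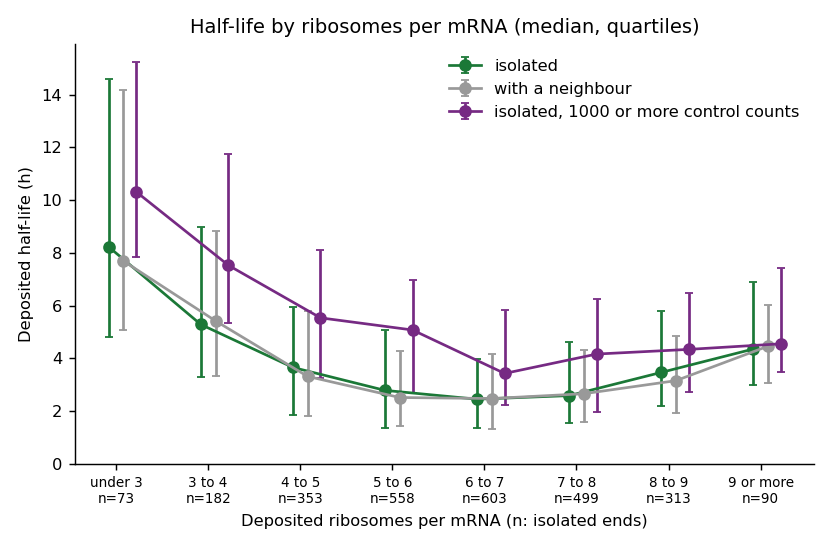
Deposited half-life (h) of isolated ends, of ends with a same-strand neighbour and of isolated ends with at least 1000 control counts, by deposited ribosomes per mRNA, as medians with quartile bars. Isolated ends go from 8.22 h under 3 ribosomes to 2.44 h at 6 to 7 and 4.35 h at 9 or more.

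The ends were also split by control counts. The median control count was 248 under 3 ribosomes, 430.5 at 3 to 4 and 363 at 5 to 6. It was 380 at 6 to 7 and 859 at 9 or more. From 3 ribosomes up, the control counts were thus also lowest in the middle groups. Within 927 ends of 60 to under 250 control counts, half-lives recomputed by the deposited formula had medians of 4.83 h in the 10% of ends with the fewest ribosomes, 1.87 h in the middle 20% and 3.43 h in the 10% with the most. Within 1058 ends of 250 to under 1000 counts they were 4.86, 2.39 and 3.62 h, and within 686 ends of 1000 or more they were 9.20, 3.48 and 4.74 h. Over all isolated ends the recomputed medians were 5.91, 2.49 and 4.04 h. Leaving out any 1 of the 12 libraries kept the order of the 3 groups, with medians of 4.62 to 8.45 h, 2.35 to 2.61 h and 3.61 to 4.16 h.

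A single rank correlation hides the bend. Over 2652 isolated ends, the Spearman rho of the slope over hours and the slope over fractions was -0.11, and that of deposited half-life and ribosomes per mRNA was -0.094 over 2657. Below 7 ribosomes per mRNA, rho of the deposited values was -0.28 over 1759 ends, and at 7 or more it was 0.25 over 898. The split at 7 was chosen after the values were seen. With 1000 or more control counts these were -0.39 over 400 ends and 0.17 over 284. Ends with neighbours had -0.25 over 6658 and 0.20 over 3976, so the bend was not particular to isolated ends, and their median deposited half-lives went from 7.69 h under 3 ribosomes to 2.47 h at 6 to 7 and 4.46 h at 9 or more in the authors' deposited table. These correlations are descriptions over ends measured in the same 12 libraries.

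The calls gave the same picture at the light side. Of the 120 isolated ends that fell over fractions, 67 (55.8%) rose over hours and 11 (9.17%) fell, while 25.8% of all 2652 rose and 32.3% fell. Those 67 were 9.81% of the 683 ends that rose over hours and could be tested in the gradient. The share of light ends that rose over hours was 43.3% when the slope was taken from the 1, 2, 4 and 8 h libraries alone, without the controls that enter the choice of ends, where 17.3% of all members rose. With the header's factors it was 8 of 34 (23.5%), beside 2.68% of all members. In the main fits, 394 ends with neighbours fell over fractions, and 64.7% of them rose over hours and 2.54% fell. Over all 10655 ends with neighbours tested, these shares were 21.4% and 33.1%. The overlap was therefore not particular to isolated ends. Of the 9 isolated ends that rose over fractions, 1 rose over hours and 2 fell, which is too few to describe.

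**Figure D5:**
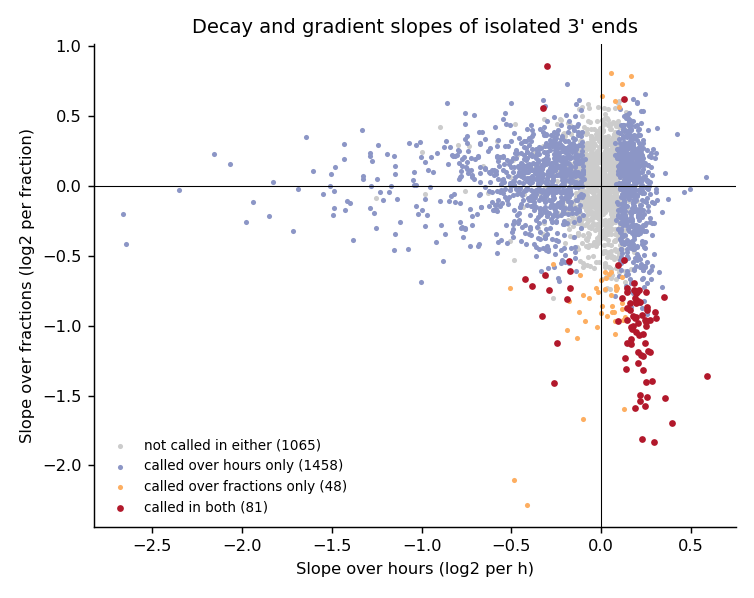
Slope over fractions (log2 per fraction) against slope over hours (log2 per h) of the 2652 isolated ends tested in both fits, coloured by edgeR call. The 67 ends that rise over hours and fall over fractions lie in the lower right.

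The ends called in both fits show each combination. The end on chromosome 15 at 36538656, the fastest rise among ends with at least 200 control counts, also fell over the fractions, with 11785 CPM in the 0 fraction, 1224 in the 1 fraction and 156 in the 12 fraction (slope -1.36 ± 0.24, edgeR adjusted p = 1.29e-04). A long-lived heavy end on chromosome 6 (minus strand, 125410283) held 233 and 234 CPM in the controls, then 215, 178, 217 and 259 CPM (slope 0.13 ± 0.03, edgeR adjusted p = 0.00317). From 1 to 4 h it thus lay below both controls, and its half-life in the authors' deposited table was 5.94 h. It held 47.5 CPM in the 0 fraction and 357 in the 12 fraction (slope 0.62 ± 0.19, edgeR adjusted p = 0.0439). With the header's factors its slope over hours turned to -0.021 (edgeR adjusted p = 0.567, range over alternatives 5.12e-04 to 0.567), and without the 8 h library it was not called (0.154). Its gradient call was lost without the 1, 2.5, 7.5 or 12 fraction, at adjusted p of 0.246, 0.0981, 0.206 and 0.0848 by edgeR (range over alternatives 0.00333 to 0.246). A short-lived heavy end on chromosome 4 (minus strand, 106906140) fell from 29.8 and 28.4 CPM to 16.4, 17.2, 8.32 and 2.47 CPM over the hours (slope -0.32 ± 0.06, edgeR adjusted p = 8.19e-04). It rose from 4.21 CPM in the 0 fraction to 42.4 in the 12 fraction (slope 0.56 ± 0.17, edgeR adjusted p = 0.0386), a call also lost without the 1, 2.5, 7.5 or 12 fraction (0.140, 0.0622, 0.0865 and 0.463 by edgeR, range over alternatives 0.00312 to 0.463). The end at 59010320 was the other short-lived heavy end, with 24.6 and 12.9 CPM in the controls, which lay apart, and 6.22, 2.73, 3.57 and 2.22 CPM after treatment (slope -0.30 ± 0.11, edgeR adjusted p = 0.0347). That fall was not called without control 1, control 2 or the 4 h library (edgeR adjusted p = 0.142, 0.0673 and 0.0820, range over alternatives 0.00296 to 0.142).

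Of the 120 light ends, 11 fell over hours. On chromosome 10 (plus strand), the end at 126733339 fell from 42.1 and 55.0 CPM in the controls to 16.9, 15, 7.92 and 4.70 CPM (slope -0.33 ± 0.07, edgeR adjusted p = 0.00189). Over the fractions it held 55.9, 115, 85.8, 32.4, 11.9 and 8.29 CPM (slope -0.93 ± 0.23, edgeR adjusted p = 0.00805), and an end on the opposite strand lay 56 nt 5′ of it. Its gradient call was lost with the header's factors and without the 1, 7.5 or 12 fraction (edgeR adjusted p = 0.138, 0.0751, 0.148 and 0.0991, range over alternatives 1.72e-05 to 0.148). At 110987664 on chromosome 12 (plus strand), the end fell from 8.56 and 9.79 CPM to 5.24, 2.73, 1.78 and 1.48 CPM (slope -0.26 ± 0.09, edgeR adjusted p = 0.0260) and held 16.2 CPM in the 0 fraction and 0.346 in the 12 fraction (slope -1.41 ± 0.21, edgeR adjusted p = 8.27e-06). Its fall over hours was not called by DESeq2 (adjusted p = 0.0596) or by edgeR without control 1, control 2 or the 4 h library (0.0724, 0.0843 and 0.0560, range over alternatives 0.00169 to 0.0843).

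The other abundant ends lay at different places in the gradient while their CPM at 8 h lay above both controls. The chromosome 11 end at 48619586 (plus strand) held 34313 CPM in the 0 fraction, 24144 in 1, 8366 in 2.5 and 5031 in 12 (slope -0.75 ± 0.22, edgeR adjusted p = 0.0376). An end on the opposite strand lay 339 nt 3′ of it. The call was lost with the header's factors (edgeR adjusted p = 0.349) and without any 1 of the 6 fractions (0.0527 to 0.250), while DESeq2 kept it (range over alternatives 6.55e-04 to 0.349). Position 143664802 on chromosome 5 (minus strand) held 5235 CPM in the 0 fraction, 1186 in 4.5 and 9565 in 12 (slope 0.064 ± 0.19, edgeR adjusted p = 0.896). In CPM it was thus high at both ends of the gradient, a profile that a slope cannot describe. Of its scaled counts, 7.46% were in the 0 fraction and 55.2% in 12, with 8.49 ribosomes per mRNA in the authors' deposited table. Over the hours it reached 5207 CPM, above its controls of 3896 and 3625 CPM (slope 0.15 ± 0.04, edgeR adjusted p = 0.00520), but under the header's factors it turned to -0.0053 (edgeR adjusted p = 0.912, range over alternatives 2.18e-04 to 0.912). The end at 48619586 rose over hours from 5392 and 4828 to 8920 CPM (slope 0.21 ± 0.03, edgeR adjusted p = 2.56e-04), with 0.059 and no call under the header's factors (edgeR adjusted p = 0.0796, range over alternatives 3.77e-10 to 0.0796).

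The ends named next lay nearest the medians of both slopes, which need not place them near the median of ribosomes per mRNA. On chromosome 1 (plus strand), the end at 60444902 held 138 and 125 CPM in the controls, then 128, 91.7, 73.7 and 70.5 CPM, which is a slope of -0.015 ± 0.03 relative to the library (edgeR adjusted p = 0.711). Over the fractions it held 104, 110, 133, 98.7, 140 and 209 CPM (slope 0.039 ± 0.18, edgeR adjusted p = 0.936). At 87784292 on chromosome 8 (minus strand), the end started at 180 and 235 CPM in the controls and then held 268, 189, 160 and 116 CPM (slope -0.011 ± 0.03, edgeR adjusted p = 0.803). It held 224 CPM in the 0 fraction, 78.6 in 4.5 and 484 in 12 (slope 0.032 ± 0.17, edgeR adjusted p = 0.946). The light peak was seen in CPM, which gives each library the same total. Of its scaled counts, 6.07% were in the 0 fraction and 53.3% in 12, where the median shares were 4.01% and 25.7%. Its ribosomes per mRNA in the authors' deposited table were 8.06, above the upper quartile of 7.42 for isolated ends. A slope near the median thus came with a heavy profile in scaled counts. In the authors' deposited table the half-lives of these ends were 2.96 and 3.41 h.

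The median half-life in the authors' deposited table was 3.07 h against 2.90 h for 10635 ends with a neighbour, and their middle 50% ran from 1.64 to 4.98 h. That order changed with control counts. In the authors' deposited table the medians were 2.65 and 2.53 h at 60 to under 120 counts, and 2.36 and 2.52 h at 120 to under 250. They were 2.73 and 2.68 h at 250 to under 500 in the authors' deposited table, and 3.05 and 3.13 h at 500 to under 1000. At 1000 to under 2000 they were 3.48 and 3.61 h in the authors' deposited table, and at 2000 or more 5.98 and 5.17 h. At 120 to under 250 control counts, ribosomes per mRNA had medians of 6.15 for isolated ends and 6.4 for ends with neighbours in the authors' deposited table, and at 2000 or more 6.43 and 6.84. These differences were not tested. In the authors' deposited table, ribosomes per mRNA had a median of 5.94 for 394 ends with the nearest at 5 to 10 kb and 6.60 for 586 ends beyond 100 kb, with half-lives of 3.31 and 2.76 h. Their median control counts were 343 and 408.5. Ends with an opposite-strand end within 5000 nt on their 3′ side (546) had medians of 3.18 h and 6.21 ribosomes in the authors' deposited table, beside 3.00 h and 6.30 for the 2010 with none.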

How the data were processed

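The authors deposited raw read counts per poly(A) site for the 12 2P-Seq libraries, with positions in mm9 and a factor per library to divide by, per the file headers. Per the submitters' processing notes, Bowtie aligned the reads. The sources used here give no Bowtie version. It was assumed that the numbers in the fraction column names ascend with the labelled fractions 1 to 6. Unused per-sample columns numbered 0. The deposited half-life and ribosomes per mRNA are other values per site. Recomputed from the counts and factors, ribosomes per mRNA matched within 1e-06 for 2671 of 2671 isolated ends. The half-life has no unit in the header. An exponential least-squares rate per hour plus 0.1 matched 2647 of the 2648 half-lives under 50 h within 0.001 per h, so it was read in hours. It stops at 50 h, which 9 isolated ends hold.

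Slopes on hours (controls at 0) and on fraction rank were fitted with edgeR 4.0.16 in R 4.3.3 (quasi-likelihood F test, robust, TMM) on every site with at least 60 counts over the 6 libraries, with Benjamini-Hochberg adjustment over all sites tested. SEs are the slope divided by the root of F. The fits were checked on simulated data. Alternatives were RLE scaling, the header's factors, DESeq2 1.42.0, no count minimum, each library left out, other distances (2000 and 10000 nt) and 200 control counts. CPM uses library totals. PCR reads are not independent molecules, so the limits for 0 counts cover counting error only.

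Named ends were the 4 steepest called slopes each way with at least 200 counts, the 4 most abundant, up to 2 called in both fits per combination of signs, and the 2 with at least 1000 control counts nearest both medians. The members and lists were chosen with earlier results of these data known.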

Additional observations from a re-analysis of the deposited data

How the results depend on the processing

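Counts of isolated ends over hours moved by over 1.5 times in these cases: 73 rose and 1563 fell under the header's factors, and 527 fell in the 1, 2, 4 and 8 h libraries alone. Leaving out 1 library gave 541 to 700 rising and 655 to 839 falling (20.3% to 26.2% and 24.5% to 31.4%). Of all sites tested, 14.9% to 21.1% then rose and 20.8% to 27.7% fell. Over fractions the header's factors gave 1065 rising and 34 falling, DESeq2 32 and 216, and no count minimum 31 rising. With 200 or more control counts, which is a smaller set, 65 of 1894 tested ends fell, beside 120 of 2652 in the main fit. The share over all sites at that count limit is not given here, so the 2 cannot be set side by side. Leaving out 1 fraction gave 3 to 86 rising and 38 to 227 falling. The share of light ends that rose over hours was 23.5% with the header's factors and 45.8% to 73.7% without 1 library. The correlation of slopes stayed negative in every alternative run, from -0.14 to -0.087 without 1 library. For called slopes of named ends under the other scalings, DESeq2 and leaving out 1 library, 256 values under alternatives kept the call, 39 lost it and 2 changed sign. The slope over hours turned with the header's factors for the ends at 143664802 (-0.0053) and 125410283 (-0.021). The cause was not tested. The medians by ribosomes and the share of light ends, with their alternatives, were added after seeing the data. No paired analysis was possible because only the controls have more than 1 library.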

Other observations

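By chromosome, the median half-life of isolated ends in the authors' deposited table ran from 2.60 h (chromosome 5, 192 ends) to 4.09 h (chromosome X, 97 ends). Chromosome X also had the highest median of ribosomes per mRNA, 6.95, in the authors' deposited table, with a median control count of 377 beside 410 for all isolated ends. On it, 33 ends rose over hours and 19 fell (34.0% and 19.6%), beside 25.7% and 32.1% of all isolated ends and 20.8% and 28.2% of all sites tested. This was noticed after seeing the values and was not tested.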
